A study of Mus musculus with 8 samples.

Results

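Histone deacetylases remove acetyl groups from lysines of histones and of many other proteins. The 10 genes described here encode zinc-dependent enzymes. *Hdac1*, *Hdac2*, *Hdac3* and *Hdac8* are of class I, and *Hdac4*, *Hdac5*, *Hdac7* and *Hdac9* of class IIa. *Hdac6* is of class IIb, and *Hdac11* is usually placed alone in class IV. *Hdac10*, also zinc-dependent and of class IIb, is not among the 10 and is given with the related genes. Where the family is named below, it means these 10 genes. They were taken by gene symbol from a table of 53090 genes, and all 10 were found once and passed the filter on low counts, which 17090 genes passed. The nerves came from mice at postnatal day 7. Total RNA of the sciatic nerve, depleted of ribosomal RNA, was sequenced from stranded libraries of 4 *Nae1* cKO nerves (labelled K2, L1, L5 and L8) and 4 WT control nerves (K1, L3, L4 and L9). *Nae1* cKO mice carry a Schwann cell Cre transgene and 2 floxed *Nae1* alleles, whereas the controls were Cre-negative littermates with 1 or 2 floxed alleles. Both groups thus carry floxed *Nae1*, and only the mutants carry Cre. Cre acts in Schwann cells from embryonic life onward, while the RNA comes from every cell of the nerve. NAE1 is a subunit of the enzyme that activates NEDD8 for neddylation, the attachment of this small ubiquitin-like protein to cullins and other targets. The comparison asks how RNA of the deacetylases differs between nerves with and without *Nae1* in Schwann cells.

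Class I enzymes are nuclear. HDAC1 and HDAC2 are the catalytic subunits of the NuRD, SIN3, CoREST and MiDAC complexes, and HDAC3 works within NCoR/SMRT. Class IIa enzymes have little catalytic activity of their own, bind MEF2 transcription factors, and leave the nucleus with 14-3-3 proteins once kinases of the CaMK, PKD and SIK families phosphorylate them. In Schwann cells HDAC1 and HDAC2 are known to act with SOX10 at myelin genes, HDAC3 to limit myelin growth, and HDAC4 and HDAC5 to repress *Jun* downstream of cyclic AMP.

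Depth was 12962798 to 14766770 expected counts per nerve. A single 7SL RNA gene, *Rn7s2*, took 20.3% to 25.8% of all TPM (a level corrected for transcript length and scaled to 1000000 per library). *Nae1* was measured at 77.7 to 89.8 CPM (counts scaled by TMM to 1000000 per library) in WT nerves and at 43.8 to 57.2 CPM in *Nae1* cKO nerves, without overlap. Its log2 fold change was −0.68 (SE 0.097, adjusted p = 2.8e-04, edgeR's quasi-likelihood test over all genes), and by this measure no nerve went against its label. In TPM the groups overlapped for *Nae1*, at 27.3 to 30.1 in WT nerves and at 28.8 in L1 and 15.4 to 22.2 in the other *Nae1* cKO nerves, and limma on log2(TPM + 1) gave −0.44 (adjusted p = 0.267). K2 stood apart from the other nerves in its share of 7SK RNA (4.70% of counts against 1.94% to 2.66% elsewhere) and of mitochondrial RNA (1.54% against 2.19% to 4.23%). K1 and L4 held far more muscle RNA than the rest: 13 skeletal muscle markers summed to 1347 CPM in K1 and 2177 CPM in L4, to 377 in L3 and 134 in L9, and to 65.5 to 202 in *Nae1* cKO nerves. Nerves were labelled as separate samples, and where nothing says that each came from its own mouse, p-values measure only the spread between these samples.

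**Figure D1:**
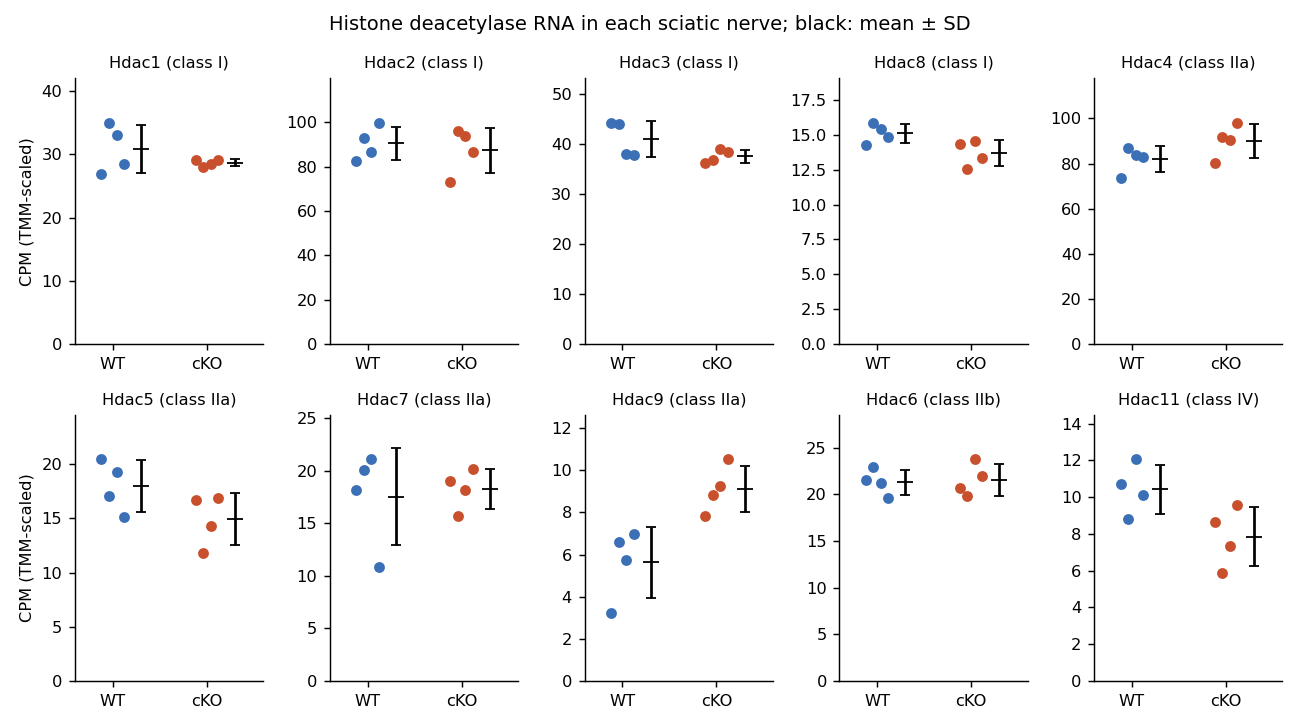
CPM of the 10 histone deacetylases in each nerve (blue, 4 WT; orange, 4 *Nae1* cKO; black, mean ± SD; each panel starts at 0). The groups overlap for every gene except *Hdac9*, whose WT nerves lie between 3.21 and 6.99 CPM and whose *Nae1* cKO nerves lie between 7.84 and 10.5 CPM.

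Each genotype difference in the family is set beside the values of all genes, and the member counts were not tested against the all-gene shares. Of the 10 genes, 1 was called at an adjusted p under 0.05, *Hdac9*, which rose in *Nae1* cKO nerves, whereas 26.4% of all genes tested were called, 14.1% as higher and 12.3% as lower. No member was called as lower, and 2 members, *Hdac9* and *Hdac11*, had an unadjusted p under 0.05. DESeq2 and limma-voom each called 1 member as well, again *Hdac9*. None of the 10 was both called and changed over 2-fold, which 6.75% of all genes were. The 4 WT and 4 *Nae1* cKO nerves did not overlap in CPM for 1 member and for 28.6% of all genes. The median size of the log2 fold change, regardless of sign, was 0.13 over the 10 members and 0.25 over all genes, and 7 members lay under the all-gene value. The signed medians were −0.08 for the members and 0.01 for all genes. In these medians the members were not matched to genes of similar count level. The small negative values of *Hdac1*, *Hdac2*, *Hdac3*, *Hdac5* and *Hdac8* turned positive under at least 1 other scaling. The median of all genes also rose under those scalings, to between 0.10 and 0.16. None of these members was called in any of the 21 other settings, so no direction is read from them. A missed threshold does not show equal levels, so each gene is given with its interval.

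**Figure D2:**
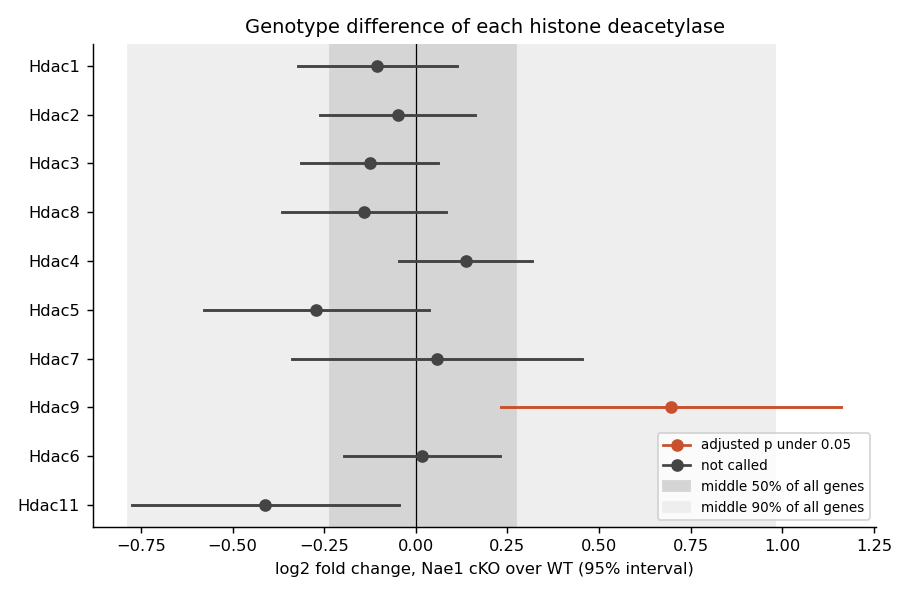
Log2 fold change of each histone deacetylase, *Nae1* cKO over WT, with its 95% interval, on grey bands that hold the middle 50% (dark) and the middle 90% (light) of the values of all 17090 genes. *Hdac9*, at 0.70, is the called member, and 8 of the other 9 intervals include 0, the exception being *Hdac11*.

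*Hdac1* was at 26.8, 35.0, 33.1 and 28.4 CPM in WT nerves K1, L3, L4 and L9, and at 29.1, 28.0, 28.4 and 29.1 CPM in *Nae1* cKO nerves K2, L1, L5 and L8. The *Nae1* cKO nerves all fell inside the WT range, and the log2 fold change was −0.11 (95% interval −0.32 to 0.11, adjusted p = 0.483, edgeR). *Hdac2*, its close paralog, was at 82.6, 93.0, 86.4 and 99.8 CPM in the same WT nerves and at 73.1, 95.9, 93.8 and 86.7 CPM in the *Nae1* cKO nerves. Its groups overlapped almost wholly, with K2 the lowest of the 8, and the log2 fold change was −0.05 (−0.26 to 0.16, adjusted p = 0.752). As folds, the lower bounds were 0.80 for *Hdac1* and 0.83 for *Hdac2*. The log2 ratio of *Hdac1* to *Hdac2* counts was −1.56 ± 0.20 in WT and −1.60 ± 0.20 in *Nae1* cKO nerves (SD, n = 4; exact permutation test, two-sided, p = 0.771). In 6 of the 8 nerves the *Hdac1* count was not whole, meaning that some of its reads were shared with another gene by the estimation.

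*Hdac3*, the catalytic subunit of NCoR/SMRT, was at 44.2, 43.9, 38.0 and 37.8 CPM in WT nerves and at 36.1, 36.8, 39.0 and 38.3 CPM in *Nae1* cKO nerves. K1 and L3 stood above the other 6 nerves, which lay together, and the log2 fold change was −0.13 (−0.31 to 0.06, adjusted p = 0.315). *Hdac8*, an X-linked class I enzyme that deacetylates cohesin, was the least abundant of its class by count, at 14.2, 15.9, 15.4 and 14.9 CPM in WT and at 14.3, 12.5, 14.6 and 13.3 CPM in *Nae1* cKO nerves. Only K2 and L5 reached the WT range, and the log2 fold change was −0.14 (−0.37 to 0.08, adjusted p = 0.351). For the 6 pairs within class I the log2 ratio differed between the genotypes by −0.04 to 0.09, with p of 0.543 or more (exact permutation tests, two-sided).

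*Hdac4*, the most abundant class IIa member, was at 73.8, 87.0, 83.8 and 82.9 CPM in WT nerves and at 80.1, 91.5, 90.3 and 98.1 CPM in *Nae1* cKO nerves. L1, L5 and L8 exceeded every WT nerve and K2 did not. In 7 of the 8 nerves the *Hdac4* count was not whole, as for *Hdac1*. The log2 fold change was 0.14 (−0.04 to 0.32, adjusted p = 0.260). *Hdac5* was at 20.5, 17.1, 19.3 and 15.1 CPM in WT nerves against 16.7, 11.8, 14.3 and 16.9 CPM in *Nae1* cKO nerves. The highest WT values were in K1 and L4, the nerves with the most muscle RNA, and the log2 fold change was −0.27 (−0.58 to 0.04, adjusted p = 0.184) over all nerves, −0.12 without K1 and L4, and −0.17 without L1. *Hdac7*, known for its role in endothelium and thymocytes, was at 18.2, 20.1, 21.1 and 10.8 CPM in WT nerves and at 19.03, 15.7, 18.2 and 20.2 CPM in *Nae1* cKO nerves. L9 lay far below the other 7 nerves, and the log2 fold change moved from 0.06 (−0.34 to 0.45, adjusted p = 0.851) to −0.12 when L9 was left out. *Hdac7* shares stretches of 6 exons with *Slc48a1* on the opposite strand, which had 604 counts per nerve on average. The strand setting of the counting is not given in the sources used here, so reads of the 2 genes may not be fully separated.

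*Hdac9*, which encodes a class IIa enzyme first known as a MEF2-interacting repressor, was the least abundant member and the one with a call. It was at 3.21, 6.59, 5.74 and 6.99 CPM in WT nerves K1, L3, L4 and L9 and at 7.84, 8.85, 9.25 and 10.5 CPM in *Nae1* cKO nerves K2, L1, L5 and L8. All 4 *Nae1* cKO nerves lay above all 4 WT nerves. These levels rest on 44 to 91 counts per WT nerve and 105 to 151 counts per *Nae1* cKO nerve. *Hdac9* rose by 0.70 on the log2 scale (SE 0.21, 95% interval 0.23 to 1.16), a 1.62-fold difference, with an adjusted p of 0.030 over all genes in edgeR's quasi-likelihood test. The estimate stayed positive in each of 21 other settings (0.42 to 0.85), but the call held in 14 of them. It was lost with L4, L1, L5 or L8 left out (adjusted p of 0.065, 0.057, 0.066 and 0.087 in that order). Without both K1 and L4 the log2 fold change was 0.42 (adjusted p = 0.173). Among the 6 nerves with the letter L in their names it was 0.56 (adjusted p = 0.0172).

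*Hdac11*, a small enzyme that removes long fatty acyl groups from lysines more readily than acetyl groups, was at 10.7, 8.83, 12.1 and 10.1 CPM in WT nerves and at 8.66, 5.85, 7.34 and 9.55 CPM in *Nae1* cKO nerves. L1, L5 and K2 lay under every WT nerve and L8 did not, and WT was highest in K1 and L4. The log2 fold change was −0.41 (SE 0.17, −0.77 to −0.05, unadjusted p = 0.0301, adjusted p = 0.092), the second largest in size of the 10 and not called. Without K1 and L4 it was −0.27 (adjusted p = 0.467). In all 8 nerves its count was not whole, so part of its reads was shared with another gene. *Hdac6*, the cytoplasmic deacetylase of tubulin and cortactin, was at 21.5, 22.9, 21.2 and 19.6 CPM in WT nerves and at 20.7, 19.8, 23.7 and 21.95 CPM in *Nae1* cKO nerves. The groups lay over each other, with a log2 fold change of 0.02 (−0.20 to 0.23, adjusted p = 0.922).

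Sequence around the starts of *Hdac9* is shown because this gene had the only call, and that of *Hdac4* because it is the class IIa paralog whose level was most correlated with it over the nerves. Windows of 250 bases before to 50 bases after annotated starts came from RefSeq (GRCm38.p6), in which 8 of the 10 members had 12 windows, with none for *Hdac1* and *Hdac3*. All 3 lie on the minus strand and are written 5′ to 3′ of the gene. Capitals mark matches, on either strand, to GGGCGG (the GC box), to CCAAT (the CCAAT box) or to TATAAA (the TATA box). They also mark TGANTCA (N is any base, called an AP-1 match here), TGACGTCA (the cyclic AMP response element) and the MEF2 consensus. TGANTCA is looser than the AP-1 consensus, which has C or G as its middle base. No 2 kinds of match overlapped in these windows.
*Hdac9*, upstream start, chr12:34917046-34917345: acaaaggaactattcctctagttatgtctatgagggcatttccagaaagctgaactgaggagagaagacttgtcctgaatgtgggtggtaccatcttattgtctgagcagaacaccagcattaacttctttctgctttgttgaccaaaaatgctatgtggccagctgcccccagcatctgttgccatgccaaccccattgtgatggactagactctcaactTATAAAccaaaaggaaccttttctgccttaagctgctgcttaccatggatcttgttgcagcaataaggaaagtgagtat
*Hdac9*, downstream start, chr12:34528840-34529139: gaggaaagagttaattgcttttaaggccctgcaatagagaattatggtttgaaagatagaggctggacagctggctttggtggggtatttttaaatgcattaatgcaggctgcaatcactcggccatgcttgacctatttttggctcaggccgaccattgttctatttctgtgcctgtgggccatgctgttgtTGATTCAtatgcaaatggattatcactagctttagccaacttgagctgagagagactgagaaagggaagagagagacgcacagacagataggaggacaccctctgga
*Hdac4*, chr1:92180292-92180591: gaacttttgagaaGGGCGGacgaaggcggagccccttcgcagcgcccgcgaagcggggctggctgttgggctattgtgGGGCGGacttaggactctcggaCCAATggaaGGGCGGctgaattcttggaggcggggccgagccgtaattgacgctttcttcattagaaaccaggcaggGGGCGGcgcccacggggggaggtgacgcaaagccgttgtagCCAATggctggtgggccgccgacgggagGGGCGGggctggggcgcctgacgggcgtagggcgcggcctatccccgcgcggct
The *Hdac9* windows were poor in CpG, with 0 and 3 CpG dinucleotides and 44.0% and 45.3% GC. The *Hdac4* window held 32 CpG dinucleotides at 68.0% GC, and the median of all 32851 windows was 7. Of the *Hdac9* windows, the upstream one held a TATA box that begins 29 bases before the start. The downstream one held an AP-1 match by the loose pattern, beginning 57 bases before its start. This match, TGATTCA, has T as its middle base and is not the AP-1 consensus. A TATA box was found in 13.6% of all windows and an AP-1 match, by the same loose pattern, in 7.81%. *Hdac4* held 5 GC boxes and 2 CCAAT boxes, motifs present in 35.7% and 37.4% of all windows. Among the 12 windows of the family, a GC box was found in 6, a CCAAT box in 5, a TATA box in 2 (*Hdac9* and *Hdac8*), an AP-1 match in 2 (*Hdac9* and *Hdac7*) and a MEF2 match in 1 (*Hdac5*; 3.19% of all windows). None held a cyclic AMP response element, which 1.79% of all windows did. A match describes letters only and is not evidence of binding.

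**Figure D3:**
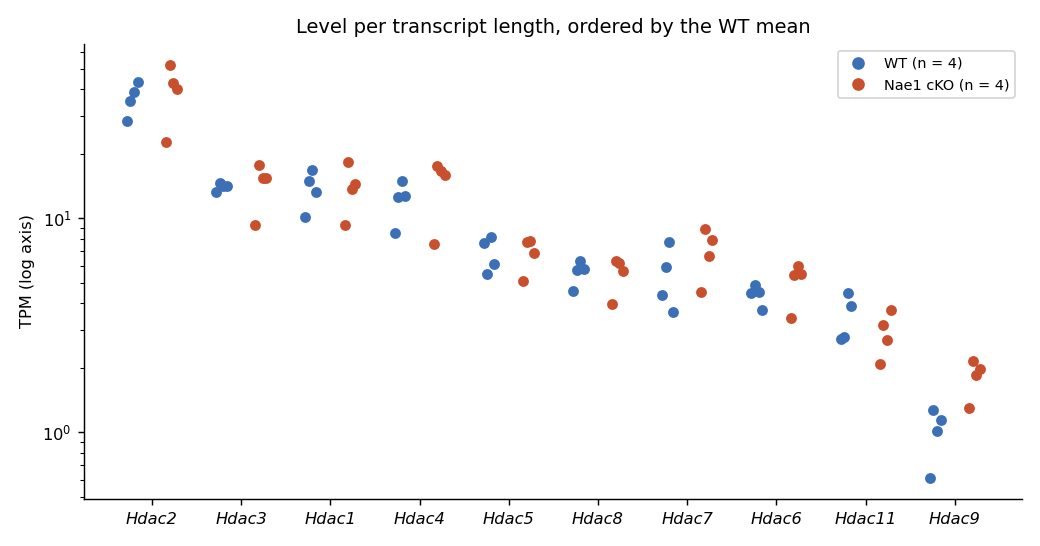
TPM of the 10 histone deacetylases in each nerve on a log axis (blue, 4 WT; orange, 4 *Nae1* cKO), ordered by the WT mean. Levels run from 36.5 TPM for *Hdac2* to 1.01 TPM for *Hdac9* in WT nerves, and the order at both ends is the same in *Nae1* cKO nerves.

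Levels of different genes were compared per transcript length, as TPM. In WT nerves *Hdac2* was the most abundant at 36.5 ± 6.20 TPM (SD, n = 4), above each other member in every WT nerve. *Hdac3* (14.1 ± 0.55 TPM), *Hdac1* (13.8 ± 2.82 TPM) and *Hdac4* (12.1 ± 2.64 TPM) followed, with overlapping ranges. Next came *Hdac5* (6.85 ± 1.28 TPM), *Hdac8* (5.61 ± 0.73 TPM), *Hdac7* (5.42 ± 1.81 TPM) and *Hdac6* (4.39 ± 0.48 TPM). Each of these overlapped its neighbour in this order, while the ranges of *Hdac5* and *Hdac6* did not overlap. *Hdac11* was at 3.47 ± 0.86 TPM and *Hdac9*, at 1.01 ± 0.29 TPM, was below it in all 4 WT nerves. In *Nae1* cKO nerves the first, second and last 3 places were held by the same genes, and *Hdac9* was at 1.82 ± 0.37 TPM. K2 was the lowest *Nae1* cKO nerve in TPM for all 10 members, which summed to 69.2 TPM there and to 118 to 139 TPM in the other 3, against 84.9 to 117 TPM in WT nerves. Shares of the family are given beside these levels for that reason.

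Class I made up 67.8% ± 2.55 of the family's summed TPM in WT nerves and 65.7% ± 1.49 in *Nae1* cKO nerves (SD, n = 4), with overlapping ranges. Class IIa made up 24.6% ± 2.18 and 27.0% ± 0.81. *Hdac9* alone went from 0.97% ± 0.22 to 1.66% ± 0.16 of the family, while *Hdac11* was at 3.33% ± 0.50 and 2.68% ± 0.48. *Hdac2* by itself was 35.3% ± 3.28 of the family in WT and 35.0% ± 1.98 in *Nae1* cKO nerves.

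A ratio of 2 genes in the same library does not depend on scaling, and the 12 pairs within class I and within class IIa were compared in this way. The log2 ratio of *Hdac4* to *Hdac9* counts was 3.91 ± 0.42 in WT and 3.30 ± 0.07 in *Nae1* cKO nerves, a difference of −0.61. That of *Hdac5* to *Hdac9* was 1.72 ± 0.68 and 0.70 ± 0.28, a difference of −1.02 (SD, n = 4 each). Neither ratio overlapped between the groups, and both had p = 0.0286 (exact permutation test, two-sided), the smallest that 4 nerves against 4 allow, and 0.171 after Benjamini-Hochberg adjustment over the 12 pairs. No pair passed the adjusted threshold. At this smallest p the few pairs with *Hdac9* could not have passed it by themselves, so nothing is concluded from the miss. Among the other class IIa pairs, *Hdac7* to *Hdac9* differed by −0.64 (p = 0.171) and *Hdac5* to *Hdac7* by −0.38 (p = 0.057), both by the exact permutation test. *Hdac4* to *Hdac7* differed by 0.04 (p = 0.943) and *Hdac4* to *Hdac5* by 0.41 (p = 0.114), by the same exact test.

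**Figure D4:**
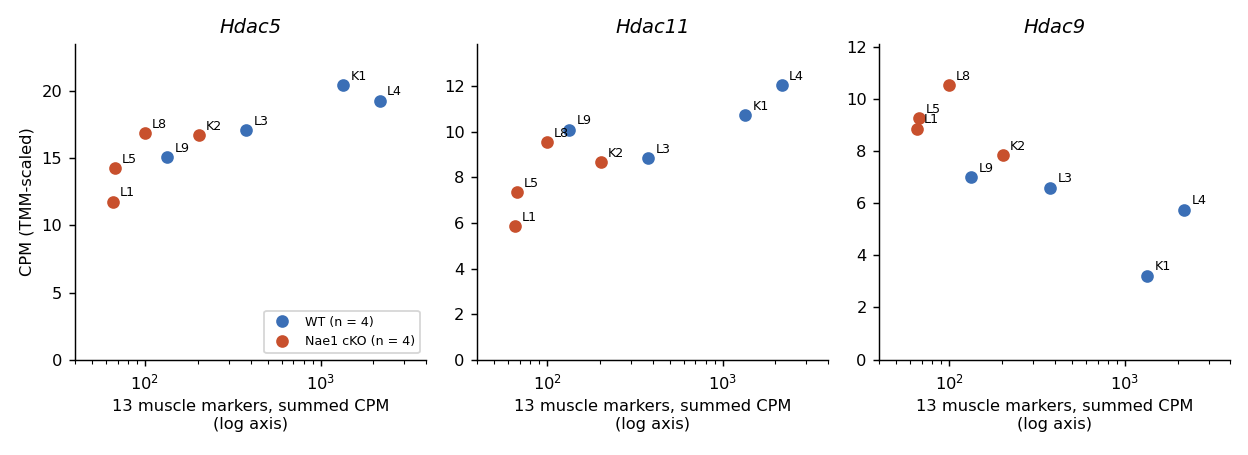
CPM of *Hdac5*, *Hdac11* and *Hdac9* against the summed CPM of 13 skeletal muscle markers (log axis) in each nerve (blue, 4 WT; orange, 4 *Nae1* cKO; points carry the nerve's name). K1 and L4, at 1347 and 2177 CPM of muscle markers, have the highest *Hdac5* and *Hdac11* and the lowest *Hdac9*.

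Over the 8 nerves *Hdac5* and *Hdac11* moved together (Pearson r = 0.89 of log2 CPM, and 0.83 for deviations from the group means), as did *Hdac4* and *Hdac9* (0.87 and 0.81). These are descriptions over 8 libraries that share their scaling and the genotype difference. K1 and L4 had the 2 highest values of *Hdac5* (20.5 and 19.3 CPM) and of *Hdac11* (10.7 and 12.1 CPM), and the 2 lowest of *Hdac9* (3.21 and 5.74 CPM). All 13 muscle markers were tested, and 4 were called, all lower in *Nae1* cKO nerves, beside 26.4% of all genes in either direction. The log2 fold changes of all 13 were negative (−3.8 to −2.0, median −2.7), and 11 had an unadjusted p under 0.05 (edgeR). The part of muscle RNA in these differences was not tested beyond the values without K1 and L4. The genes most like *Hdac9* over the 8 nerves were *Rps13* (r = 0.98), *Tshz3* (0.98) and *Zcchc11* (0.97). Those most like *Hdac11* were *Aldh9a1* (0.97), *Dhdh* (0.97) and *Pisd-ps1* (0.96).

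Markers of other cell types were read in the same way. Of 9 markers of the Schwann lineage, 2 were called higher and 3 lower in *Nae1* cKO nerves, beside 26.4% of all genes. Their median log2 fold change was −0.08, and no direction is read for this list. No sum is given for it, because a single gene made up most of the sum. Macrophage markers summed to 204 to 235 CPM in WT and 326 to 450 CPM in *Nae1* cKO nerves (7 of 10 called, all higher), and cycling genes to 522 to 698 CPM and 783 to 1450 CPM (8 of 10, all higher). Their summed TPM did not overlap for macrophages (65.4 to 79.8 and 119 to 157) but did for cycling genes (95.4 to 132 and 112 to 390). Endothelial markers summed to 268 to 328 CPM and 207 to 250 CPM (3 of 10, all lower, a share near the 26.4% of all genes), and in TPM to 98.1 to 117 and 65.3 to 119, with overlap. Of the other lists, 4 of 10 fibroblast and 1 of 6 neuronal markers were called higher. Called lower were 1 of 5 perineurial and 1 of 9 mural markers, beside 26.4% of all genes in either direction. The median log2 fold changes of these lists were 0.24, −0.41, 0.34 and −0.18 in that order. The neuronal and perineurial medians thus went against their 1 called gene, and no direction is read for those lists. None of 2 lymphocyte or granulocyte, 3 adipocyte and 4 erythroid markers tested was called, and the neuronal nuclear marker *Rbfox3* was at 0 in all nerves. In RNA of a whole nerve, fewer cells of a type and less RNA per cell cannot be told apart. Where *Hdac9* and the other members were transcribed was not measured, and the part of these cell types in their values was not tested.

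The deposited gene length, an average over transcripts weighted by their estimated shares, gives a readout of isoform use. It is estimated from the same reads as the count. Of the 11936 genes whose length varied, 0% were called by limma on log2 length, with a smallest adjusted p of 0.0506. At an unadjusted p under 0.05 there were 808 genes (6.77%), and by effective length 807, with none called after adjustment. No member had an unadjusted p under 0.05, and the groups overlapped for all 10. Lengths of *Hdac3* were nearly constant over the nerves (2051 to 2092 bases, coefficient of variation 0.75%). Those of *Hdac9* ranged from 3082 to 4508 bases (13.6%) and those of *Hdac5* from 1539 to 2176 bases (12.3%). The *Hdac9* lengths rest on 44 to 151 counts per nerve over 10 transcripts, those of *Hdac3* on 476 to 606 counts over 4. Whether these ranges hold isoform use or estimation error was not tested. Mean *Hdac9* length was 3853 ± 611 bases in WT and 3824 ± 511 bases in *Nae1* cKO nerves (SD, n = 4; log2 difference −0.01, SE 0.14).

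**Figure D5:**
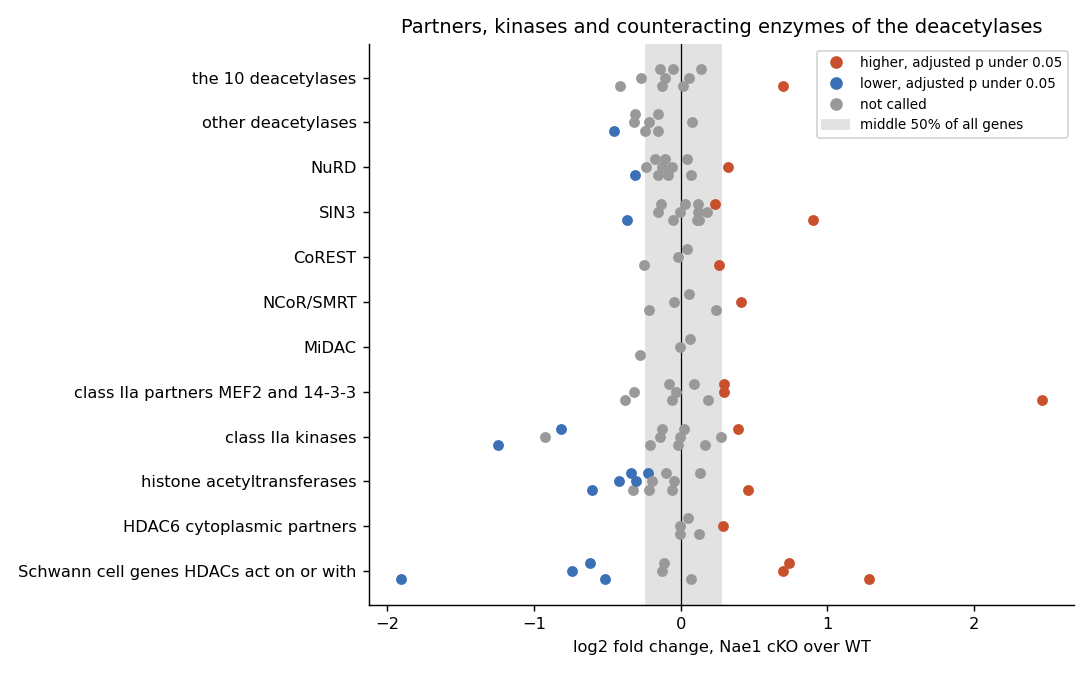
Log2 fold change, *Nae1* cKO over WT, of the 10 deacetylases and of 94 tested genes in 11 related lists (1 point per gene; orange, called higher; blue, called lower; grey, not called). Most points lie within or near the grey band that holds the middle 50% of all genes. The point farthest to the right is *Sfn* at 2.47.

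Genes that work with or against the deacetylases were taken as 11 lists. Of their 94 tested genes, 14 were called higher and 14 lower, or 29.8%, beside 26.4% of all genes. Up to 3 called genes per list are named by rule, and further called genes were named after their values were seen. Some genes that were not called are named outside the rule as well. Of the called genes named below, *Sfn*, *Camk4*, *Mcam* and *Sap30* alone kept the call in both limma fits on log2 TPM. Without K1 and L4 these 4 and *Tbl1xr1*, *Camk2b*, *Kat2b*, *Pou3f1* and *Runx2* kept it, and the others, *Sox10*, *Gdnf*, *Mef2a* and *Sap18* among them, did not. Losses on leaving out 1 nerve are given beside each gene. Among the other deacetylases, the sirtuins and *Hdac10*, 1 of 8 was called. This was *Sirt2*, a tubulin and histone deacetylase abundant in myelinating glia, which fell by 0.46 on the log2 scale (adjusted p = 0.041, edgeR) but lost the call without K1, L4, L9, L1, L5 or L8. *Hdac10*, the class IIb polyamine deacetylase, had a log2 fold change of −0.31 (−0.74 to 0.11).

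Of 11 NuRD genes, *Rbbp7*, a histone chaperone shared with SIN3, rose by 0.33 and *Chd4*, the remodelling ATPase, fell by 0.31 on the log2 scale (adjusted p of 0.032 and 0.048, edgeR). *Rbbp7* lost the call without K1, L3, L4, L1, L5 or L8, and *Chd4* without any 1 nerve other than K2. Of 13 SIN3 genes, the accessory subunit genes *Sap18* and *Sap30* fell by 0.36 (adjusted p = 0.0076) and rose by 0.90 (0.025), and the scaffold *Sin3a* rose by 0.23 (0.037). *Sap18* lost the call with library totals and on log2(FPKM + 1) as well, and its estimate came as near to 0 as −0.03. *Sap30* lost the call without L3, L4, L9, K2 or L5, and *Sin3a* without K1, L3, L9, L1, L5 or L8. *Sap30* was low, at 1.75 ± 0.50 and 3.29 ± 0.90 CPM (SD, n = 4). Of 4 CoREST genes the demethylase *Kdm1a* rose by 0.26 (adjusted p = 0.018, lost without K1 or L1), and of 5 NCoR/SMRT genes *Tbl1xr1*, which exchanges corepressors for coactivators, rose by 0.41 (5.3e-04). None of the 3 MiDAC genes was called by edgeR, DESeq2 or limma-voom, and none had an unadjusted p under 0.05 in edgeR.

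Of 10 tested MEF2 and 14-3-3 genes, the class IIa partners, 3 were called, all higher. *Sfn*, which encodes 14-3-3 sigma, rose from 1.03 ± 0.54 to 5.77 ± 1.999 CPM (log2 fold change 2.47, adjusted p = 3.1e-04, edgeR). *Mef2a* and *Mef2c* each rose by 0.30 (adjusted p of 0.010 and 0.031), and *Mef2c* lost the call without K1, L3, L9, L1, L5 or L8. Of 12 kinases that phosphorylate class IIa enzymes, 3 were called, again a share near that of all genes. *Camk4* fell from 21.2 ± 2.28 to 8.91 ± 1.32 CPM (log2 fold change −1.25, adjusted p = 3.3e-05). *Camk2b* fell by 0.81 (adjusted p = 7.8e-04), and *Prkd1* rose by 0.39 (0.045, lost without L3, L4, L9, K2, L1 or L5). Among 5 cytoplasmic partners of HDAC6, its substrate cortactin (*Cttn*) rose by 0.29 (adjusted p = 0.019, lost without K1, L5 or L8), and the tubulin acetyltransferase *Atat1* was at 0.00 (−0.45 to 0.44).

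The acetyltransferases, which add the group that deacetylases remove, had 6 of 13 genes called, 5 of them lower, beside 26.4% of all genes. This share was not tested against that of all genes. The lower calls depended on the scaling: 1 was left with library totals, *Kat2b*, and 0 with limma on log2(TPM + 1), log2(TPM + 0.1) or log2(FPKM + 1). Over all genes the lower calls also fell in these settings, from 2099 to 1255, 424, 415 and 1035 in that order. *Kat2b* (PCAF) fell from 102 ± 13.9 to 66.9 ± 9.04 CPM (log2 fold change −0.60, adjusted p = 0.0023, edgeR), *Kat6b* fell by 0.42 (0.0054, between −0.46 and −0.04 over the alternatives) and *Kat5* (TIP60) fell by 0.34 (0.010). *Ncoa1* and *Kat6a* fell by 0.30 and 0.22, and *Hat1*, which acetylates newly made histone H4, rose by 0.46 (adjusted p = 0.010). *Ncoa1* lost the call without K1, L3, L4, L1, L5 or L8, and *Kat6a* without L3, L4, L9, L1, L5 or L8. The coactivators *Ep300* and *Crebbp* had log2 fold changes of −0.10 (−0.30 to 0.10) and −0.05 (−0.20 to 0.11). Without K1 and L4, the nerves with the most muscle RNA, none of *Kat6b*, *Kat5*, *Ncoa1*, *Kat6a* and *Hat1* was called.

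Of 10 Schwann cell genes that deacetylases are known to act on or with, 7 were called, beside 26.4% of all genes. This list was chosen with earlier results of these data known, so its count is not read as a result about deacetylase targets. The promyelin factor *Pou3f1* fell by 0.62 on the log2 scale (adjusted p = 0.0011, edgeR). *Sox10*, the partner of HDAC1 and HDAC2, fell by 0.74 (0.0083), and the myelin regulator *Egr2* fell by 0.51 (0.042, lost without K1, L4, L9, L1, L5 or L8). The adhesion molecule gene *Mcam* rose by 0.74 (9.7e-06), the neurotrophic factor gene *Gdnf* by 1.28 (0.010) and the transcription factor gene *Runx2* by 0.70 (0.035, lost without K1, L3, L9, L5 or L8). *Jun*, a target of class IIa repression and an early brake on myelination, was at 51.3 ± 4.84 CPM in WT and 47.3 ± 2.69 CPM in *Nae1* cKO nerves (log2 fold change −0.12, −0.31 to 0.08, and above 0 in 4 of 21 other settings). These changes stood beside log2 fold changes of −0.14 to −0.05 for the 4 class I deacetylases and of 0.14 and −0.27 for *Hdac4* and *Hdac5*.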

How the data were processed

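Total RNA of 8 sciatic nerves, 4 per genotype, was sequenced from stranded, ribosomal RNA-depleted libraries. Genotype came from the sample labels. For each nerve the authors deposited a gene-level RSEM table of 53090 genes with the expected count (estimated fragments, not scaled), TPM (which the authors' RSEM run scales to 1000000 per nerve), FPKM (deposited per kilobase of gene and per library size), gene length and effective length. FastQC 0.11.5, STAR, RSEM and GRCm38 are credited in the submitters' processing notes, whereas the methods of the paper name TopHat on mm10 and Cuffdiff. How strand was set in counting, and which annotation was used, is not given in the sources used here. Gene positions and overlaps came from GENCODE vM21, to which 52489 identifiers matched.

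Expected counts were rounded. Genes were kept by filterByExpr (17090), scaled by TMM and compared with edgeR 4.0.16 (quasi-likelihood, robust, no covariate), with Benjamini-Hochberg adjustment over all 17090 genes and calls at an adjusted p under 0.05. Lengths were compared on the log2 scale with limma 3.58.1. Ratios of 2 members' counts (0.5 added to each) were tested by exact permutation, two-sided, in scipy 1.17.1, 12 pairs in all. The edgeR test and the limma length test were tried on simulated data, and the permutation test was not. The common biological coefficient of variation was 0.158, and depth was 12962798 to 14766770 expected counts per nerve.

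The members and lists were chosen with earlier results of these data known. Named by rule were all members, *Nae1*, up to 3 called genes with the smallest adjusted p of each of 11 related lists, and the 3 genes with the highest Pearson r to each of the 2 members with the smallest p. Further called genes, and *Jun*, *Ep300*, *Crebbp*, *Atat1* and *Hdac10*, which were not called, were named outside this rule. Alternatives were library totals, DESeq2 size factors, DESeq2 1.42.0, limma-voom, 2 other count filters, removal of mitochondrial and abundant noncoding genes, limma on log2(TPM + 1), log2(TPM + 0.1) and log2(FPKM + 1), the letter in each nerve's name as a covariate or as a limit, removal of K1 and L4, and removal of each nerve in turn. Some items that the rule gives are not reported here.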

Additional observations from a re-analysis of the deposited data

How the results depend on the processing

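Of the 21 alternatives, 14 kept the 1 member called higher and 7 gave 0. The count was 0 with limma on log2(TPM + 1), with limma on log2(TPM + 0.1) and without K1 and L4, and with 1 nerve left out it ranged from 0 to 1. No alternative called a member as lower. Calls over all genes fell from 2411 higher and 2099 lower (4510) to 1297 and 424 (1721) on log2(TPM + 1), to 1245 and 415 (1660) on log2(TPM + 0.1), and to 1273 and 1129 (2402) without K1 and L4. Library totals alone gave 3875 higher and 1255 lower, and log2(FPKM + 1) gave 1035 lower. The share of calls that were higher was 53.5% with TMM and 75.5%, 75.4%, 75% and 76.4% with library totals, log2(TPM + 1), log2(TPM + 0.1) and log2(FPKM + 1). The median of all genes moved to 0.16, 0.10, 0.13 and 0.13 under the same settings. *Hdac9* at 0.85 with library totals is thus to be read against 0.16. *Hdac1*, *Hdac2*, *Hdac3*, *Hdac5* and *Hdac8*, all slightly negative with TMM, turned positive under at least 1 of these scalings without a call. With library totals they were at 0.05, 0.11, 0.03, −0.12 and 0.01 in that order, all under the 0.16 of all genes. No paired analysis was possible because the labels carry no numbers common to the groups. With 44 counts in the lowest nerve, *Hdac9* was the member whose precision depth limited most.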
